A study of Mus musculus with 12 samples.

Results

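Cytotoxic granule genes were followed across 12 arrays of splenic regulatory T cells (Treg): the granzymes Gzmb, Gzma, Gzmk and Gzmm, the pore-forming protein Prf1, the granule proteoglycan Srgn, the granule membrane protein Nkg7 and the cysteine protease Ctsw. The members were chosen by gene symbol, and each had exactly 1 probe set. They are 8 of 22180 genes on the 23521 probe sets (rows) that carry exactly 1 gene symbol. A further row is annotated to Prf1 together with a mitochondrial gene and was left out. The symbols were put together with earlier results of these data known, in which Gzmb, Gzma, Nkg7 and Gzmk were higher in iTreg than in eTreg. Their values in the comparisons with iTreg are therefore given as a description, without p-values, and where a difference passed the threshold of the whole-table test this is stated only as a count and supports nothing. The lists of other genes were also chosen with earlier results known. Adjusted p-values of list genes in the comparisons with iTreg are thus a description too, and no independent tests.

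The cells came from DEREG mice with ovalbumin-induced allergic airways disease, in which a Foxp3-driven transgene makes Treg sensitive to diphtheria toxin (DTx). All mice were sensitized and challenged with ovalbumin, and Treg were sorted from spleen by flow cytometry, with 4 biological replicates per group. The eTreg group (endogenous Treg) received human serum albumin (HSA) at 2 g/kg as the control protein. The e_iTreg group received intravenous immunoglobulin (IVIg), pooled human IgG, at 2 g/kg without DTx, and the labels call its cells a mixture of endogenous and IVIg-induced Treg. The iTreg group received DTx at 40 ng/g to deplete endogenous Treg and then IVIg at 2 g/kg, and the labels call its cells IVIg-induced. The assignment of DTx follows the series design, while the growth protocol is worded alike for all samples and places DTx before either protein. No DTx and HSA group was analysed here, so depletion and IVIg cannot be told apart between iTreg and eTreg, nor can newly induced cells and Treg that remained or returned after DTx. Age, sex, sort gate and the number of mice per sample are not given in the sources used here.

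Cytotoxic lymphocytes store granzymes, which are serine proteases, in secretory granules on a scaffold of the proteoglycan serglycin, encoded by Srgn. On contact with a target cell the granules fuse with the plasma membrane, perforin opens pores in the target, and granzymes enter and cleave proteins there. Granzyme B and perforin have also been described in Treg, as a route by which activated Treg kill effector T cells, B cells or antigen-presenting cells.

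Values are log2 expression per probe set, levels are means ± SD over 4 arrays, and differences are log2 differences ± SE from 1 limma fit of all 3 groups. A row passed the test when its p, adjusted by the Benjamini-Hochberg method over all 23521 rows, was under 0.05. Levels of different probe sets are not comparable with each other, and a fold is 2 to the power of the log2 difference. The median of e_iTreg replicate 3 was 6.50 and those of the other 11 arrays lay between 6.28 and 6.38, and pairwise correlations lay between 0.954 and 0.988. Foxp3, the lineage-defining transcription factor of the sorted Treg, had levels of 12.46 ± 0.09, 12.30 ± 0.21 and 12.17 ± 0.25 in the eTreg, e_iTreg and iTreg groups. None of 8 defining markers (Foxp3, Il2ra, Ctla4, Ikzf2, Nrp1, Cd4, Cd3e, Tnfrsf18) passed in any comparison. In iTreg minus eTreg 5.36% of all rows passed as higher and 4.63% as lower. The lack of a pass does not show that marker levels were equal or that the samples held only Treg. In bulk samples, fewer cells of a type and less RNA per cell cannot be told apart.

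The promoters of 5 members are shown because 4 of these genes were high together in iTreg and the fifth, Prf1, was not. RefSeq promoter windows (GRCm38.p6) matched 7 of the 8 members. Printed are the 250 bases before the start of each gene, 5′ to 3′ on the strand of the gene, with motif matches in capitals. The windows lie at chr14:56262335-56262584 (Gzmb, minus strand), chr13:113100982-113101231 (Gzma, minus), chr13:113180966-113181215 (Gzmk, minus), chr7:43436888-43437137 (Nkg7, plus) and chr10:61297586-61297835 (Prf1, plus).
Gzmb: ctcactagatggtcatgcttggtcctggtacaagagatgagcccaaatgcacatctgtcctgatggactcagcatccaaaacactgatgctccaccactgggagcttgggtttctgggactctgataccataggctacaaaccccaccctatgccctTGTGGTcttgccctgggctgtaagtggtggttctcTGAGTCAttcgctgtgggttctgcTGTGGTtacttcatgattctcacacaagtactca
Gzma: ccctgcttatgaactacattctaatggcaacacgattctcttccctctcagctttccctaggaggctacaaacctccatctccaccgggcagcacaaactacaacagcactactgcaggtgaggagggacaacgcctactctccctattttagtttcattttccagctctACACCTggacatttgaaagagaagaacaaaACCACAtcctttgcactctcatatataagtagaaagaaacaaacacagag
Gzmk: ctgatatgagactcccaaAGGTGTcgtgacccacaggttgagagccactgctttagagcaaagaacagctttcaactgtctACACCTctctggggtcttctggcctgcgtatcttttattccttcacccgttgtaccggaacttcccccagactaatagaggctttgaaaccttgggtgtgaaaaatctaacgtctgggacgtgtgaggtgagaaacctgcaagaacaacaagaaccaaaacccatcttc
Nkg7: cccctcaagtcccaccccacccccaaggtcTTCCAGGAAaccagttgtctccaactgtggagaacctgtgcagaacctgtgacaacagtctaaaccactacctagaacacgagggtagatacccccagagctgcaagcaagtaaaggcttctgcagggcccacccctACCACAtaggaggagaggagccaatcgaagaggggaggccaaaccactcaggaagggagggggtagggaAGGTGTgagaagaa
Prf1: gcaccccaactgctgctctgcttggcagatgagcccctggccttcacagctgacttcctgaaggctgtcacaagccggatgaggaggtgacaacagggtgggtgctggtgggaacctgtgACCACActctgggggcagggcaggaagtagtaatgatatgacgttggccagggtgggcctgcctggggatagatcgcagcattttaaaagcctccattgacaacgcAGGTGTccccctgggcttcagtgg
Both strands were searched for AGGTGT (T-box factors such as T-bet), TGTGGT (RUNX factors), TGANTCA (AP-1), TGACGTCA (CRE) and TTCNNNGAA (STAT factors), and no 2 of these matches overlap in the printed windows.

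The Gzmb window held 2 TGTGGT matches, starting 93 and 34 bases before the gene start, and TGAGTCA, an AP-1 match, starting 58 bases before it. Gzma, Nkg7 and Prf1 each held 1 AGGTGT and 1 TGTGGT match counting both strands, Gzmk held 2 AGGTGT matches and no TGTGGT, and Nkg7 also held 1 STAT match. Among 32851 promoter windows of the same length, 11.8% held AGGTGT, 14.0% TGTGGT, 6.75% TGANTCA, 1.55% TGACGTCA and 7.02% TTCNNNGAA. Of the windows not printed, Gzmm window 1 held 1 TGTGGT and 1 STAT match and Srgn window 2 held 1 TGTGGT match. Gzmm window 2 and Srgn window 1 held no match. Whether these matches bear on the expression of the genes was not tested. A match is a stretch of letters and was not measured as bound.

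Gzmb, the granzyme that cleaves after aspartate and can activate caspases, gave the largest difference between iTreg and the other groups of all rows tested. Its probe set (17307033) read 9.55, 8.23, 7.41 and 6.61 in eTreg replicates 1 to 4, 7.92, 9.52, 7.54 and 7.33 in e_iTreg, and 12.07, 11.95, 11.75 and 12.75 in iTreg. All 4 iTreg arrays lay above all 8 others, and the lowest of them was 2.20 above the highest eTreg array. The group levels were 7.95 ± 1.26, 8.08 ± 0.99 and 12.13 ± 0.43 in eTreg, e_iTreg and iTreg. The difference iTreg minus eTreg was 4.18 ± 0.53, an 18.1-fold higher level, and iTreg minus e_iTreg was 4.05 ± 0.53, 16.6-fold. Both ranked 1 among 23521 rows. The eTreg and e_iTreg arrays were spread widely, over ranges of 2.94 and 2.19, against 1.0 in iTreg.

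Gzma, a trypsin-like granzyme that cleaves after basic residues, showed the same grouping at a smaller size. Its probe set (17296286) read 6.63, 6.33, 5.10 and 5.86 in eTreg, 6.31, 6.71, 6.32 and 5.41 in e_iTreg, and 8.62, 7.77, 7.66 and 8.65 in iTreg. The iTreg arrays lay above all others without overlap, and within iTreg replicates 1 and 4 were higher than replicates 2 and 3. The difference was 2.20 ± 0.33 against eTreg (4.58-fold) and 1.99 ± 0.33 against e_iTreg (3.97-fold), ranks 43 and 46 from the top.

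Gzmk, a second trypsin-like granzyme whose gene lies next to Gzma with 1 listed gene between them, was higher in iTreg by a small amount. Its probe set (17296294) read 6.59, 6.41, 6.25 and 6.18 in eTreg, 6.49, 6.39, 6.48 and 6.31 in e_iTreg, and 7.07, 6.95, 6.79 and 6.94 in iTreg. The groups did not overlap, but the gap to the highest eTreg array was only 0.20. The difference was 0.58 ± 0.10 against eTreg (1.49-fold) and 0.52 ± 0.10 against e_iTreg (1.44-fold). With eTreg replicates 3 and 4 and e_iTreg replicate 4 left out, the arrays with the lowest mean of B cell markers, the difference from eTreg was 0.44 and no longer passed.

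Gzmm, the granzyme that prefers methionine and leucine, was not higher in iTreg. Its levels were 6.67 ± 0.13 in eTreg, 6.73 ± 0.06 in e_iTreg and 6.53 ± 0.34 in iTreg, and the differences were -0.14 ± 0.14 and -0.20 ± 0.14 against eTreg and e_iTreg. In iTreg, 3 arrays read 6.66, 6.73 and 6.70 and replicate 2 read 6.02. Without that array the differences were 0.03 and -0.03. The 4 granzymes thus differed from iTreg to the other groups by very unequal amounts, from 4.18 for Gzmb to -0.14 for Gzmm against eTreg. Over 12 arrays the means of Gzmm, Gzmk and Gzma were 6.64, 6.57 and 6.78, near the middle of all rows (percentiles 53.3, 51.8 and 56.1). Gzmb was at percentile 91.0. Whether low signal narrowed any of these differences was not tested.

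Prf1, which encodes perforin, had overlapping groups, as Gzmm did. Its probe set (17233694) read 7.86, 8.06, 7.80 and 7.87 in eTreg, 7.67, 7.77, 7.91 and 7.75 in e_iTreg, and 7.71, 7.85, 7.61 and 8.07 in iTreg. Its highest value, in iTreg replicate 4, was close to that of eTreg replicate 2. The difference iTreg minus eTreg was -0.09 ± 0.11 with a 95% interval of -0.32 to 0.15, and iTreg minus e_iTreg was 0.04 ± 0.11 with an interval of -0.20 to 0.27.

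Srgn, the granule scaffold, had levels of 11.64 ± 0.08, 11.68 ± 0.07 and 11.82 ± 0.08 for eTreg, e_iTreg and iTreg. The lowest and highest arrays were 11.55 and 11.73, 11.59 and 11.75, and 11.72 and 11.90, so that the iTreg group reached down just into the range of both others. The difference from eTreg was 0.18 ± 0.09 and that from e_iTreg 0.13 ± 0.09, neither past the threshold.

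Nkg7, a membrane protein of cytotoxic granules needed for their release, was higher in every iTreg array. Its probe set (17477101) read 9.33, 9.28, 9.18 and 8.64 in eTreg, 9.04, 9.42, 9.39 and 9.02 in e_iTreg, and 11.15, 11.16, 10.62 and 10.90 in iTreg. The lowest iTreg array was 1.2 above the highest of the other 8. The difference was 1.85 ± 0.17 against eTreg (3.60-fold) and 1.74 ± 0.17 against e_iTreg (3.34-fold).

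Ctsw, a papain-family protease known from CD8 T and NK cells, went the other way. Its probe set (17361605) read 9.68, 9.97, 10.15 and 10.10 in eTreg, 9.58, 9.61, 9.73 and 9.86 in e_iTreg, and 9.16, 9.41, 9.16 and 9.21 in iTreg. All iTreg arrays lay below all 8 others, with a gap of 0.27 to eTreg and 0.16 to e_iTreg, and the e_iTreg mean lay between the other 2. The difference was -0.74 ± 0.12 against eTreg and -0.46 ± 0.12 against e_iTreg, changes of 1.67-fold and 1.38-fold. The second no longer passed without e_iTreg replicate 4, iTreg replicate 1 or iTreg replicate 3 (differences of -0.41, -0.44 and -0.44), nor without the 3 arrays named for Gzmk (-0.41).

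**Figure D1:**
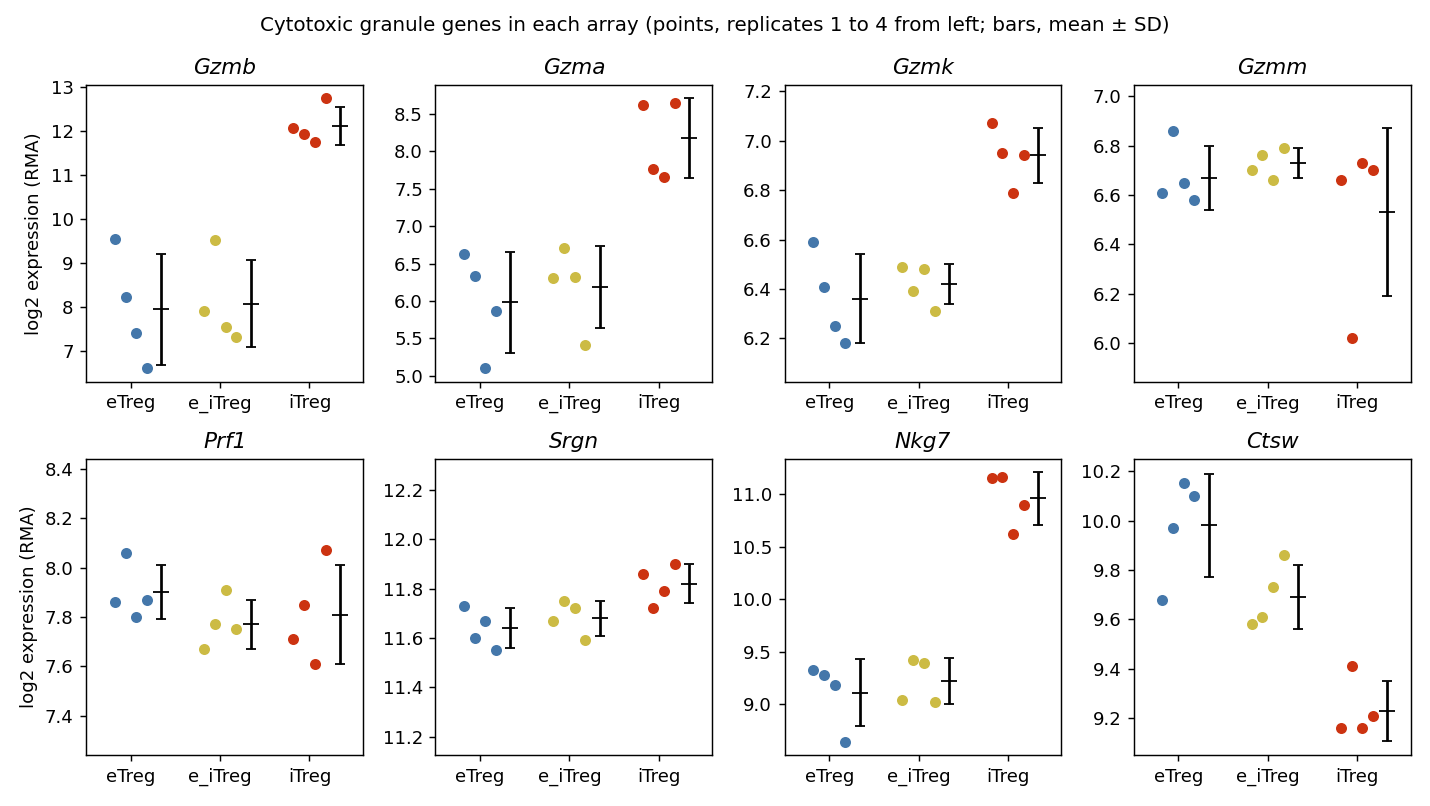
Log2 expression (y axis) of the 8 cytotoxic granule genes in each of 12 arrays, by group (x axis), with replicates 1 to 4 from left to right in each group and the mean ± SD beside them; y axes differ between genes and do not start at 0. The iTreg arrays lie above all others for Gzmb, Gzma, Gzmk and Nkg7, lie below them for Ctsw, and overlap them for Gzmm, Prf1 and Srgn.

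Counted together, 4 of the 8 members passed as higher and 1 as lower in iTreg minus eTreg, where 5.36% of all rows passed as higher and 4.63% as lower. In iTreg minus e_iTreg the counts were again 4 higher and 1 lower, against 6.49% and 4.75% of all rows. The same 5 members made up both counts, and both comparisons use the same iTreg arrays. The arrays of the groups did not overlap for these 5 members in either comparison, while over all rows that held for 14.7% against eTreg and 16.6% against e_iTreg. The median difference of the 8 members was 0.38 and 0.33, against -0.01 and -0.07 over all rows. Since the members were chosen with these comparisons known, nothing is read from these counts.

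**Figure D2:**
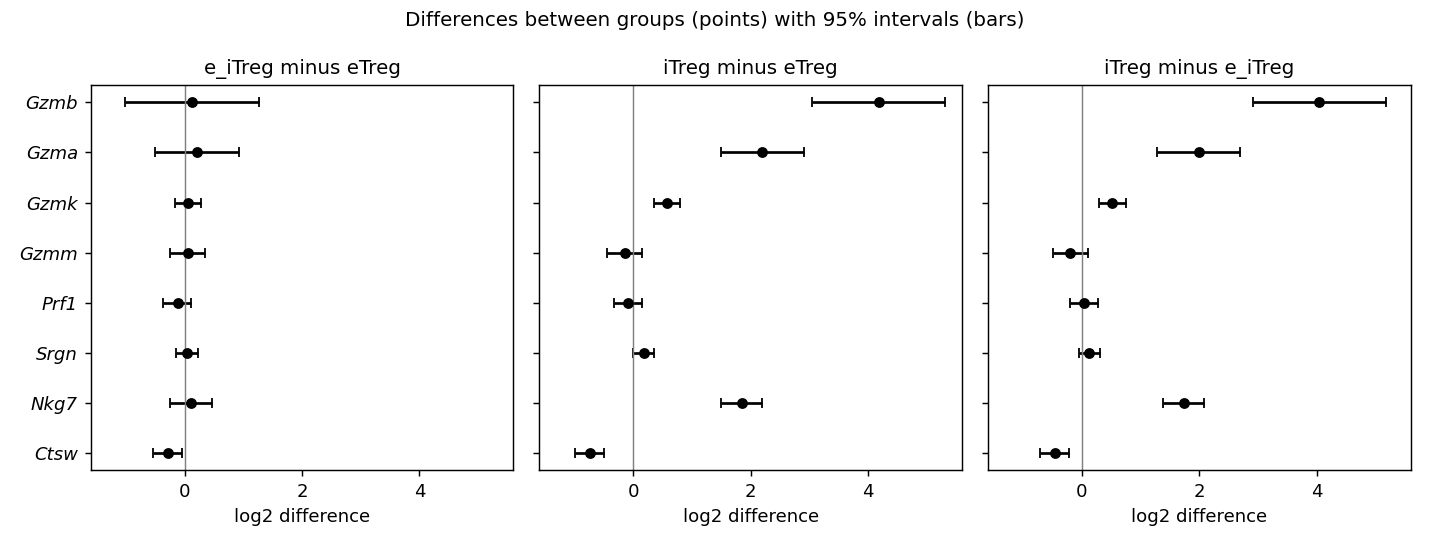
Log2 differences (x axis) of the 8 members (y axis) in the 3 comparisons between groups, 1 panel each, with 95% intervals from the limma fit as bars and 4 arrays per group. In the e_iTreg minus eTreg panel the intervals of all members but Ctsw include 0, and in the panels with iTreg Gzmb lies farthest from 0 at 4.18 and 4.05.

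The comparison e_iTreg minus eTreg sets IVIg against albumin in mice without DTx, and its difference uses no iTreg array. None of the 8 members passed limma's test, as none of all rows did (0%), and 1 member had an unadjusted p under 0.05, against 7.01% of all rows. That member was Ctsw, with a difference of -0.28 ± 0.12 (95% interval -0.53 to -0.04, adjusted p = 0.704 by limma) and overlapping arrays. The adjusted p of the other 7 ran from 0.780 to 0.958. Gzmb differed by 0.13 ± 0.53 with an interval of -1.01 to 1.27, and Gzma by 0.21 ± 0.33 with an interval of -0.50 to 0.92, so a difference of 1 log2 unit in either direction lay inside the interval for Gzmb and outside it for Gzma. The intervals were narrower for Nkg7 (-0.24 to 0.46), Gzmk (-0.17 to 0.28), Gzmm (-0.24 to 0.35), Prf1 (-0.36 to 0.11) and Srgn (-0.14 to 0.23). The sign of the Gzmb difference was not stable, since it was 0.66 without eTreg replicate 1 and -0.35 without e_iTreg replicate 2.

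The members differed in how much they varied between arrays of 1 group, a quantity that does not use the differences between groups. The pooled within-group SD was 0.96 for Gzmb and 0.59 for Gzma, as large as or larger than that of 99.8% and 99.0% of rows, against a median of 0.17. Nkg7 was at 0.27, Gzmm at 0.21, Ctsw at 0.16, Prf1 at 0.14 and Gzmk at 0.13. Srgn, at 0.08, was as low as or lower than all but 1.28% of rows.

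Within eTreg and within e_iTreg the Gzmb arrays had the order of the cell cycle genes. The mean of 21 cell cycle genes was 8.82, 7.80, 7.59 and 7.07 in eTreg replicates 1 to 4 and 8.35, 8.90, 7.44 and 7.18 in e_iTreg, and in both groups its ranking of the 4 arrays was that of Gzmb. In iTreg the cell cycle mean was 10.21, 9.77, 10.15 and 9.31, and replicate 4, with the lowest of these values, had the highest Gzmb. The arrays nearest in this mean were e_iTreg replicate 2 (8.90) and iTreg replicate 4 (9.31), and their Gzmb values were 9.52 and 12.75. These 2 arrays were not alike in other markers. Of all arrays, iTreg replicate 4 had the highest means of monocyte and macrophage (8.15), neutrophil granule (7.77) and plasma cell markers (9.51). Of the 21 cell cycle genes 20 passed as higher in iTreg against eTreg, where 5.36% of all rows did, with a median difference of 2.26. The cell cycle list thus moved with Gzmb between groups too, and its part in the Gzmb difference was not tested.

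Markers of other cells that carry cytotoxic granules or that the sort could hold were measured in the same arrays. The mean of 16 NK and innate-like lymphocyte markers ranged from 5.59 to 6.08 in eTreg, 5.61 to 6.17 in e_iTreg and 5.80 to 6.13 in iTreg. By limma 0 of the 16 passed against eTreg (2 had an unadjusted p under 0.05), and 1 was lower against e_iTreg (Cd160, -0.35 ± 0.10). Over all rows 5.36% passed as higher and 4.63% as lower against eTreg, and 6.49% and 4.75% against e_iTreg. The median differences of the 16 were 0.13 and -0.01, against -0.01 and -0.07 over all rows. Against eTreg the 16 differences ran from -0.25 ± 0.10 for Cd160 to 0.54 ± 0.38 for Tyrobp and 0.54 ± 0.41 for Fcer1g, signalling adaptors that myeloid cells also express, with Klrk1, which encodes NKG2D, at 0.45 ± 0.18 and Cd244a at 0.31 ± 0.23. The NK receptors Ncr1 and Klrb1c, which define these cells, had eTreg levels of 5.80 ± 0.31 and 5.69 ± 0.25 and iTreg levels of 5.85 ± 0.21 and 5.49 ± 0.07. Of the CD8 T cell markers 0 of 4 passed the threshold in either comparison, by limma, beside the same shares of all rows. An unadjusted p under 0.05 was found only for Crtam against e_iTreg (lower, -0.34 ± 0.15). With shares this small, these low counts do not show that such cells were absent. Cd8a had levels of 6.02 ± 0.35 and 6.29 ± 0.63, and Eomes, a T-box factor of CD8 T and NK cells, 7.03 ± 0.17 and 6.88 ± 0.20, for eTreg and iTreg.

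Within the eTreg group the NK list mean was 6.08, 5.87, 5.69 and 5.59 in replicates 1 to 4, the order of Gzmb, and B cell markers (11 genes) were at 7.84, 7.58, 6.08 and 6.30. In e_iTreg they were at 5.95, 6.17, 5.96 and 5.61 for the NK list and 7.47, 7.74, 7.23 and 6.13 for B cells, so the array with the highest Gzmb was again the highest in both lists. In iTreg the NK list mean was 6.05, 5.86, 5.80 and 6.13 in replicates 1 to 4, which is also the order of Gzmb. The B cell mean in iTreg was 6.99 to 7.39, inside the range of eTreg. Correlations with list means were taken over 12 arrays after each group mean was taken off. Gzmb had r = 0.885 with the NK list, 0.772 with the B cell list and 0.766 with the cell cycle list. For Gzma these values were 0.889, 0.832 and 0.505. Some myeloid and plasma cell markers were higher in iTreg, to a large part in replicate 4. Against eTreg 1 of 7 monocyte and macrophage genes passed as higher, with a median difference of 0.47, and 1 of 9 neutrophil granule genes, with a median of 0.48. Of the plasma cell genes 2 of 10 passed as higher, with a median of 0.67. Over all rows 5.36% passed as higher and 4.63% as lower, with a median of -0.01. Itgam, which encodes the integrin CD11b, ranged from 7.77 to 8.99 in iTreg and from 5.85 to 7.29 in the other 8 arrays (1.68 ± 0.29 against eTreg, adjusted p = 0.00254 by limma). Ctsg passed among the neutrophil genes, and Prdm1 (1.04 ± 0.19) and Txndc5 (0.69 ± 0.20) among the plasma cell genes, of which Prdm1 is also expressed in effector Treg. The means of these lists were highest in iTreg replicate 4, at 8.15 for 7 monocyte and macrophage genes against 6.34 to 7.14 in all other arrays and at 9.51 for 10 plasma cell genes against 7.41 to 8.21. Neutrophil granule genes (9) were at 7.77 in that array against 5.94 to 6.76. In iTreg replicates 1 to 3 the neutrophil mean was 6.69, 6.70 and 6.38, inside the range of the other groups. Their monocyte and macrophage means were 7.14, 6.93 and 6.97, against at most 6.93 in eTreg and 6.90 in e_iTreg. Their plasma cell means were 8.21, 7.84 and 7.99, against at most 7.77 and 7.86. Replicate 4 of iTreg also had the highest Gzmb, Gzma and Prf1 of its group. Without it Gzmb differed from eTreg by 3.98 and Gzma by 2.04. Leaving out the 3 arrays with the lowest B cell mean gave 3.24 for Gzmb, 1.70 for Gzma and 1.65 for Nkg7 against eTreg. The part of these other cells in the member differences was not tested beyond these values.

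**Figure D3:**
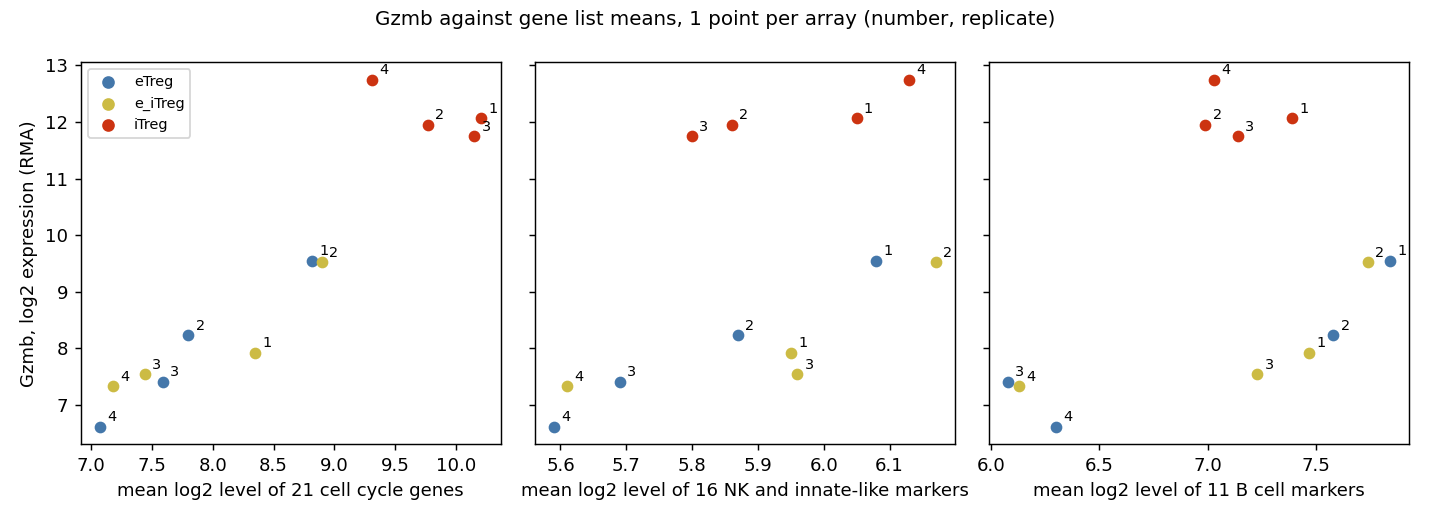
Gzmb level (y axis, log2) in each of 12 arrays against the mean log2 level of 21 cell cycle genes, 16 NK and innate-like lymphocyte markers and 11 B cell markers (x axes), coloured by group and numbered by replicate. Among the eTreg and e_iTreg arrays the highest Gzmb values go with the highest list means, while the 4 iTreg arrays lie at 11.75 to 12.75. Their cell cycle means lie above those of all other arrays, and their NK and B cell means inside the range of the others. Lists of monocyte and macrophage, neutrophil granule and plasma cell markers, all highest in iTreg replicate 4, are not plotted. The part of any list in the Gzmb difference was not tested.

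Ctsw also tended to run against Gzmb among the arrays of eTreg and of e_iTreg. In eTreg the array with the highest Gzmb, replicate 1, had the lowest Ctsw (9.68), and in e_iTreg replicate 4, with the lowest Gzmb, had the highest Ctsw (9.86). In iTreg this order did not hold. Ctsw was highest in replicate 2 (9.41), whose Gzmb was the second lowest, but replicate 3, with the lowest Gzmb (11.75), had a Ctsw of 9.16. Replicate 4, with the highest Gzmb (12.75), had a Ctsw of 9.21. After each group mean was taken off, Gzmb and Ctsw had r = -0.734 over 12 arrays (rho = -0.713), and r = -0.515 over the 10 arrays left without the 2 farthest from the median Gzmb deviation. Gzma and Gzmb had r = 0.704 (rho = 0.860, and 0.707 without the 2 farthest in Gzma), and Gzmb and Srgn had r = 0.711 (rho = 0.685, and 0.543 without the 2 farthest in Gzmb). Gzmb had a lower r with Prf1 (0.214, rho = 0.238, and 0.492 without those 2) and with Gzmm (0.133, rho = 0.266, and 0.299). These values describe arrays that also share differences in B cell and cell cycle genes, and no p is given for them.

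Genes whose arrays deviated most like a member were sought in the same way among 12654 other genes with a mean of at least 6. For Gzmb the 5 highest were Glrx (r = 0.951), S100a6 (0.951), Frmd5 (0.947), Ncf4 (0.945) and Myadm (0.939), over 12 arrays and after removal of group means. With the 2 arrays farthest from the median Gzmb deviation left out, the r of these 5 was 0.833 to 0.904, and Spearman's rho over all 12 was 0.888 to 0.958. Between groups they did not all go with Gzmb: Glrx, S100a6 and Myadm differed by 1.54, 2.24 and 1.53 in iTreg minus eTreg, but Frmd5 and Ncf4 by -0.06 and 0.03. For Gzma the 5 were Hsd11b1 (0.951), Runx3 (0.943), the B cell gene Fcrla (0.936), the chemokine Ccl3 (0.934) and Lsp1 (0.923). For Nkg7 they were H2ap (0.921), the kinase Pim2 (0.911), Fmc1 (0.906), Olfr1300-ps1 (0.893) and the retinoic acid receptor Rara (0.877). No gene was common to the 3 sets. Each set was picked as the highest of 12654 values, so a high r follows in part from the choice. The checks with rho and with 2 arrays left out reuse the same arrays and are no independent support.

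Other granzyme genes lie beside Gzmb on chromosome 14, and none of the 5 measured passed the threshold. Over all rows 5.36% passed as higher and 4.63% as lower against eTreg. In the stretch from Ctsg (cathepsin G) to Gzmb the RefSeq table lists 8 protein-coding genes, of which 7 were measured. Next to Gzmb, Gzmc was at 5.22 ± 0.23 in eTreg and 5.94 ± 0.50 in iTreg, a difference of 0.72 ± 0.26 with a 95% interval of 0.16 to 1.28 (adjusted p = 0.108 by limma), and it differed from e_iTreg by 0.70 ± 0.26. Gzmn, Gzmd, Gzmg and Gzmf differed by 0.40, 0.16, -0.04 and -0.23, none past the threshold, and the probes of such similar genes may share signal. Ctsg itself passed as higher against eTreg (0.55 ± 0.14, adjusted p = 0.0201) but not against e_iTreg (0.40 ± 0.14, adjusted p = 0.0831). Beyond Ctsg lies Mcpt8, a granzyme-like protease of basophils, with levels of 5.52 ± 0.33, 5.76 ± 0.10 and 6.51 ± 0.48 in the 3 groups, which was higher in iTreg in both comparisons (0.99 ± 0.20 and 0.75 ± 0.20). It was the only one of 12 mast cell and basophil genes to pass, where 5.36% of all rows passed as higher against eTreg and 6.49% against e_iTreg. The other 11 differed from eTreg by -0.06 ± 0.09 (Ms4a2) to 0.41 ± 0.22 (Hdc, the histamine-forming enzyme), with Fcer1a at 0.32 ± 0.11 and Cma1 at 0.29 ± 0.16, and the median of all 12 was 0.10.

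Among 29 measured genes within 3 places of a member in the genome, 4 passed as higher and none as lower against eTreg, against 5.36% and 4.63% of all rows. These were Esm1, a proteoglycan gene near Gzmk (0.48 ± 0.12), the ubiquitin-conjugating enzyme Cdc34 near Gzmm (0.50 ± 0.11), the electron transfer flavoprotein Etfb near Nkg7 (0.60 ± 0.12) and the actin regulator Cfl1 near Ctsw (0.35 ± 0.10). Against e_iTreg 2 of the 29 passed as higher (Etfb and Cfl1) and none as lower, where 6.49% and 4.75% of all rows did.

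Of 6 genes that mature and sort granzymes, 1 passed as higher and 1 as lower against eTreg, where 5.36% and 4.63% of all rows did. Ctsc, the peptidase (cathepsin C) that activates progranzymes, was higher and Igf2r, a mannose 6-phosphate receptor, lower in iTreg minus eTreg, and the median difference of the 6 genes was 0.42, against -0.01 over all rows. Ctsc read 9.09, 8.80, 8.73 and 8.80 in eTreg, 8.87, 8.89, 9.07 and 8.72 in e_iTreg, and 9.61, 9.28, 9.55 and 9.78 in iTreg, without overlap (0.70 ± 0.12, adjusted p = 0.00253 by limma). Igf2r differed by -0.65 ± 0.13 (adjusted p = 0.00672), while the other mannose 6-phosphate receptor gene, M6pr, was at 0.44 ± 0.16 against eTreg (adjusted p = 0.112) and 0.54 ± 0.16 against e_iTreg, where it passed (adjusted p = 0.0426). Gnptg, a subunit of the enzyme that makes the mannose 6-phosphate tag, passed against e_iTreg only (0.41 ± 0.12, against 0.40 ± 0.12 with eTreg). Whether either pair of differences was unequal was not tested.

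Of 21 genes of granule transport and release, 5 were higher and 2 lower in iTreg minus eTreg, and these 7 also passed against e_iTreg in the same directions. Over all rows 5.36% passed as higher and 4.63% as lower against eTreg, and the median of the 21 was 0.06, against -0.01 over all rows. Rab27a, the GTPase that docks granules, was higher by 0.55 ± 0.13 (adjusted p = 0.0115 by limma), its partner Sytl3 by 0.80 ± 0.18, the SNARE proteins Vamp7 and Vamp8 by 0.64 ± 0.13 and 0.49 ± 0.12, and the lysosomal membrane protein Lamp2 by 0.65 ± 0.13. Lamp1, the surface marker of degranulation known as CD107a, fell by 0.58 ± 0.10, and the SNARE Vamp2 by 0.42 ± 0.10. Unc13d, Stx11 and Stxbp2, whose loss impairs granule release in familial haemophagocytic disease, were at 0.17 ± 0.10, 0.66 ± 0.20 (adjusted p = 0.056) and -0.03 ± 0.08, none past the threshold.

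Serpinb9, which encodes an inhibitor of granzyme B, was also higher in iTreg. It read 7.39, 7.40, 7.12 and 7.45 in eTreg, 7.0, 7.27, 7.47 and 7.23 in e_iTreg, and 7.80, 7.89, 7.88 and 7.61 in iTreg. The iTreg arrays lay above all others, with differences of 0.45 ± 0.12 (adjusted p = 0.0215 by limma) and 0.55 ± 0.12 (adjusted p = 0.00745). The other 4 serpins measured, Serpinb9b, Serpinb6a, Serpinb6b and Serpinb1a, were at -0.18 to 0.17 against eTreg and did not pass. The median of the 5 serpins against eTreg was 0.12, against -0.01 over all rows, of which 5.36% passed as higher and 4.63% as lower.

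**Figure D4:**
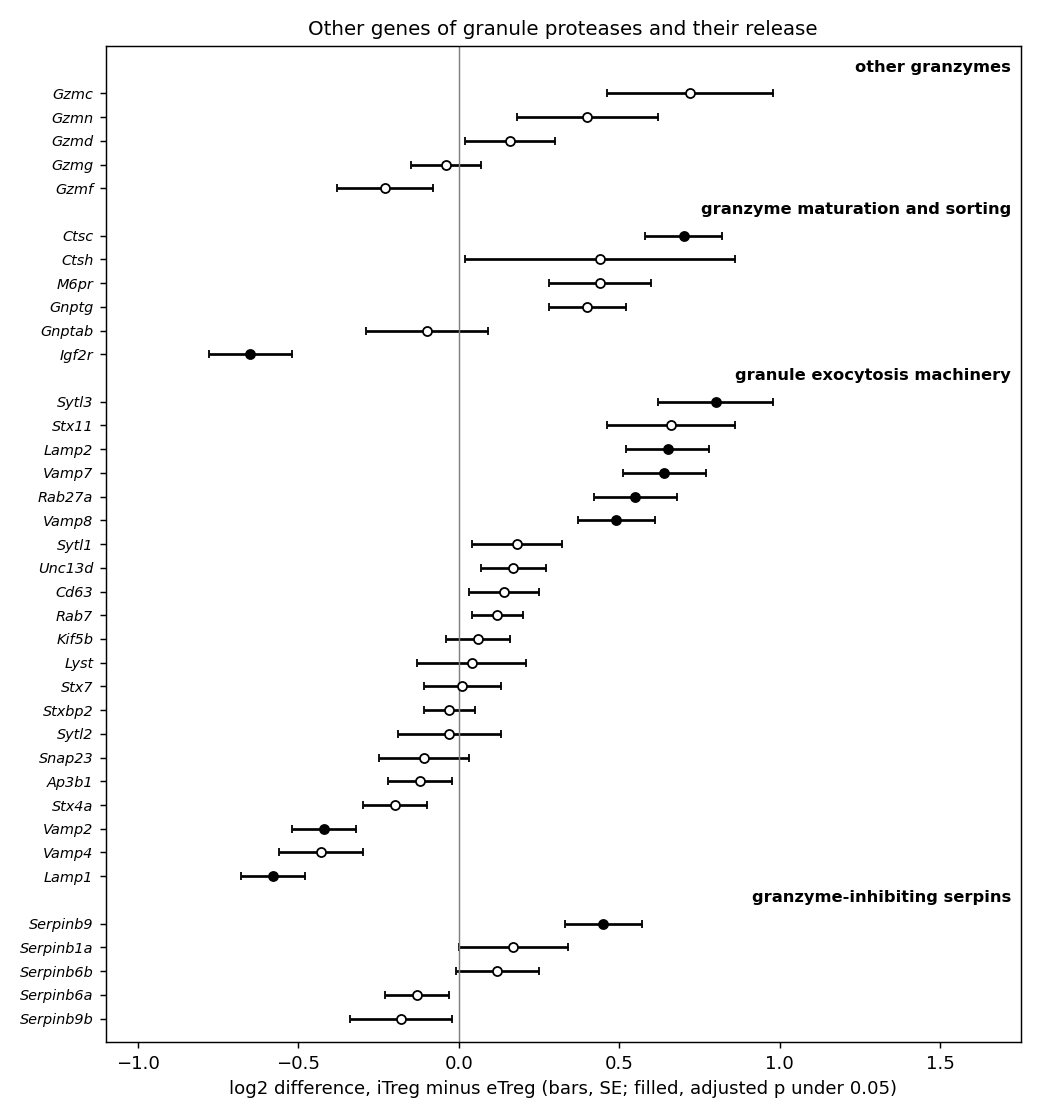
Log2 difference iTreg minus eTreg (x axis) with SE (bars) for 37 other genes of granule proteases and their release (y axis), grouped by role, from the limma fit with 4 arrays per group; filled points passed at adjusted p under 0.05. Ctsc, Sytl3, Lamp2, Vamp7, Rab27a, Vamp8 and Serpinb9 passed as higher, and Igf2r, Vamp2 and Lamp1 as lower.

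Of 10 measured transcription factors known to shape cytotoxic programmes, Tbx21, Prdm1 and Runx3 were higher and Bach2 and Lef1 lower in iTreg minus eTreg, beside the same 5.36% and 4.63% of all rows. Runx3, a RUNX factor of CD8 T cells, read 7.67, 7.50, 7.16 and 7.29 in eTreg, 7.72, 7.75, 7.57 and 7.40 in e_iTreg and 8.34, 8.11, 8.13 and 8.50 in iTreg (0.87 ± 0.13, adjusted p = 0.00137 by limma). Tbx21, which encodes T-bet, did not overlap between iTreg (8.85 to 9.53) and the other arrays (7.40 to 8.01), while its relative Eomes did overlap and differed by -0.15 ± 0.12. Bach2, a repressor of effector genes in T cells, was lower by 1.02 ± 0.15 on the log2 scale. These factors were listed with earlier results of these data known, so the p of Runx3 is a description only.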

How the data were processed

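Splenic Treg of 12 samples (3 groups of 4 labelled biological replicates, not described further) were profiled on Affymetrix arrays from 2 ng of RNA each. The deposited values are log2 expression per probe set, made by the authors with oligo and RMA per the submitters' processing notes. Versions, settings and genome build are not given in the sources used here. Of 41345 rows, 23521 had exactly 1 gene symbol in the platform annotation, and 23328 of these were named through the RefSeq table. One limma 3.58.1 model (R 4.3.3) was fitted to all 3 groups (9 residual degrees of freedom), two-sided, with Benjamini-Hochberg adjustment over the 23521 rows and no fold threshold. The median SE was 0.121. The number of arrays limits the precision, and the p-values rest only on how far these samples vary, which may be partly technical. The fit was tested on simulated data.

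The members, the gene lists and the tests were chosen with earlier results of these data known. The text names all probe sets of the 8 members, at most 4 list genes with the smallest p per list and comparison plus defining markers, genes within 3 places of a member in the genome, and the 5 genes most like Gzmb, Gzma and Nkg7 within groups. The genes of the Ctsg to Gzmb stretch and other list genes that complete a count were named after their values were seen. Where a gene had several probe sets, the one with the highest mean was used. Alternatives covered normalization, filters, the error model, array weights, the replicate block, thresholds and left-out arrays. Samples with 1 replicate number were not taken as pairs in the main model. Correlations of their deviations ran from 0.0669 to 0.238 between eTreg and e_iTreg and from -0.152 to 0.121 in pairs with iTreg. Samples with unlike numbers were not compared in this way, so these values do not show whether the samples were paired.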

Additional observations from a re-analysis of the deposited data

Results flagged for a closer look

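Gzmm in iTreg replicate 2 stood apart from the other 3 iTreg arrays, at 6.02 against 6.66 to 6.73, by more than a gap test at the 95% level allows for 4 samples. It was 1 of 24 gene and group combinations checked, and chance alone flags about 1 in 20. No explanation was tested.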

How the results depend on the processing

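The counts of members past the threshold, 5 for iTreg against each other group and 0 for e_iTreg minus eTreg, were recomputed under 24 alternatives. Leaving out each array in turn gave 5 to 5 members for iTreg minus eTreg, 4 to 5 for iTreg minus e_iTreg and 0 to 0 for e_iTreg minus eTreg. With a fold of at least 1.5 the counts were 4 and 3, since Gzmk and then also Ctsw dropped out. Without the 3 arrays of lowest B cell mean, which were known from earlier results, they were 4 and 4 (Gzmk dropped out against eTreg and Ctsw against e_iTreg), with 400 rows past the threshold in all against eTreg. With the replicate number as a block (replicate block) they were 5, 5 and 0, and the block changed no call of a member. Since the members were chosen on the comparisons with iTreg, these counts are no independent sign of stability.

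In e_iTreg minus eTreg, where no member passed, several signs turned. After quantile normalization Gzmk was at 0 (just below it). After median centring Gzmk and Gzmm were at -0.01 and Srgn at -0.02. Without the 3 arrays Gzma was at -0.03, Gzmb at -0.56, Gzmk at -0.05, Gzmm at -0.03 and Nkg7 at -0.02. With 1 array left out Gzma ran from -0.08 to 0.47, Gzmb from -0.35 to 0.66, Gzmk from 0 to 0.13 and Nkg7 from -0.05 to 0.19. The cause of these changes was not tested.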
